A study of Mus musculus with 24 samples.

Results

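Chaperones of the cytosol and mitochondria, with the heat shock factors that control many of them, were followed by gene symbol across both hemispheres of mice with and without a stroke. Of 32 listed genes, 27 had a probe set under their symbol, among 19505 genes with a single symbol on the array, and none had more than 1. Dnaja1, Dnajb5, Hspa8, Hsp90ab1 and Hsf1 were not analysed here. By textbook knowledge of the heat shock response, 15 of the measured members were classed as inducible by heat shock factor 1 (HSF1) and 11 as constitutive, and Hsf2 stood by itself. The mice were of strain C57Bl/6j, male and 8 to 10 weeks old. In 8 of them the middle cerebral artery was occluded with an intraluminal filament for 90 min (MCAO, a model of ischaemic stroke) and reperfused for 30 min, so that the brain was taken 2 h after onset. The other 4 mice had sham surgery. All were perfused with cold saline, and the hemisphere on the operated side (ipsilateral, IP) and the opposite one (contralateral, CL) were each measured on a whole-transcript array, giving 24 arrays. A whole hemisphere holds tissue inside and outside the territory of the occluded artery.

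Heat shock proteins keep other proteins folded. Hsp70 proteins bind exposed hydrophobic stretches in a cycle driven by ATP, J-domain proteins deliver clients to them, and Hsp110 proteins exchange their nucleotide. Hsp90 matures signalling clients with the help of co-chaperones, small heat shock proteins hold unfolded chains without ATP, and Hsp60 with its cofactor Hsp10 folds proteins inside mitochondria. When unfolded protein builds up, HSF1 forms trimers, binds heat shock elements in promoters and raises transcription of the inducible genes, with the Hsp70 genes Hspa1a and Hspa1b as the classical targets. Constitutive members keep a basal level in unstressed cells.

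The promoters bear on that contrast, because a heat shock element is built from inverted GAA units. RefSeq promoter windows (build GRCm38.p6, from 250 bases before to 50 after a gene start) matched 26 of the 32 members, and 24 of these were measured. The 3-unit motif GAANNTTCNNGAA was searched on both strands, as were the 2-unit motifs GAANNTTC and TTCNNGAA, which lie inside the longer one. The 3-unit motif occurred in windows of 5 of 26 members, 19.2%, against 179 of 27025 genes with a window, 0.662%. Of the members with a probe set and a window, it was present in 2 of 13 inducible (Hsph1, Chordc1) and in 3 of 10 constitutive genes (Dnajb6, Hspd1, Hspe1). Windows of Hspd1 and Hspe1, which are transcribed in opposite directions on chromosome 1, overlap and hold the same letters. These windows are shown, up to 30 bases past the gene start and with the 3-unit motif in capitals, because the motif lies in genes of both assigned classes. The class of Hspd1 and Hspe1 rests on that assignment, and their shared letters count as 2 of the 3 constitutive genes with the motif.
Hspe1, plus strand, chr1:55087898-55088177: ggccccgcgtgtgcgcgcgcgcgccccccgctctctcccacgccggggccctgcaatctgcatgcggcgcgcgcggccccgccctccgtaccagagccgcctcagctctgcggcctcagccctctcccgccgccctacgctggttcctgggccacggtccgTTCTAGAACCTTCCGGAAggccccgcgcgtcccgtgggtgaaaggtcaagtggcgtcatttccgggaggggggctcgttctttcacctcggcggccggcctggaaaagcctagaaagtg
Hsph1, minus strand, chr5:149636286-149636565: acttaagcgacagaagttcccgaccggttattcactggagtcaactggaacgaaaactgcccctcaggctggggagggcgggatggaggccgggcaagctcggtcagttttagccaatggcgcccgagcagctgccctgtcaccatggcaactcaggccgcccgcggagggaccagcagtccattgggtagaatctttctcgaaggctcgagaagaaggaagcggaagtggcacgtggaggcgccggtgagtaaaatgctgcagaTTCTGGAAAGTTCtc
Chordc1, plus strand, chr9:18292017-18292296: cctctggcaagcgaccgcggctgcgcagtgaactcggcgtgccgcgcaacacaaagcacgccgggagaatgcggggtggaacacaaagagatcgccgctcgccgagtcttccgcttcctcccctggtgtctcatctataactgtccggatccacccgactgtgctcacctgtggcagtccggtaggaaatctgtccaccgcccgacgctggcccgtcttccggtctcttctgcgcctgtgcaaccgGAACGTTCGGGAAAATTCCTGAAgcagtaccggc
Dnajb6, plus strand, chr5:29735648-29735927: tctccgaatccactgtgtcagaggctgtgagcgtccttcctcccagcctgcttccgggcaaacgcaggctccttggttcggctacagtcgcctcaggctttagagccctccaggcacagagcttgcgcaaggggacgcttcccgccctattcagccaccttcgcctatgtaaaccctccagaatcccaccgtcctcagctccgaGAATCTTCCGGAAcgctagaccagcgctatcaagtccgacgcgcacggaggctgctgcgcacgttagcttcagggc
In Hspe1 the capitals are 2 overlapping matches and in Chordc1 3 overlapping matches. The first began 89 bases before the gene start in Hspe1, 46 before in Dnajb6, 4 before in Chordc1 and 16 after it in Hsph1.

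The genes with the greatest side differences below lacked the 3-unit motif. GAANNTTC occurred in 7 of 13 inducible members with a probe set, 3 of 10 constitutive members and both Hspa1a and Hspa1b, against 9.04% of all genes. TTCNNGAA occurred in 3 of 13 and 3 of 10, against 9.6%. Both windows of Dnajb1 lacked all 3 motifs. The windows of Hspb1, of the second Dnajb4 start and of Hspa1b are shown with the 2-unit motifs in capitals. Hspb1 and Dnajb4 had the largest side estimates among members, and Hspa1b is a comparator. The window of the other comparator, Hspa1a, holds the 2-unit motif at the same distance from the start.
Hspb1, plus strand, chr5:135887669-135887948: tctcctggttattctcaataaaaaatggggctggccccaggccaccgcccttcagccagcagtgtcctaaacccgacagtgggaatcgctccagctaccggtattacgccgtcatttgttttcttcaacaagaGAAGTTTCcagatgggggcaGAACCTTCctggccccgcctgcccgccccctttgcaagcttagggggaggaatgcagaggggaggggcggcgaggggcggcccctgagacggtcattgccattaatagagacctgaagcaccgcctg
Dnajb4, minus strand, chr3:152193816-152194095: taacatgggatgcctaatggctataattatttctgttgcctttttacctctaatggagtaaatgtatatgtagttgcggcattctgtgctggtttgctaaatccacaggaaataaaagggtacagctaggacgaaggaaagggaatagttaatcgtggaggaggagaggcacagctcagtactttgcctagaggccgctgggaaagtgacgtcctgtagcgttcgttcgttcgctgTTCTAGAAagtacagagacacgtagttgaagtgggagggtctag
Hspa1b, minus strand, chr17:34959209-34959488: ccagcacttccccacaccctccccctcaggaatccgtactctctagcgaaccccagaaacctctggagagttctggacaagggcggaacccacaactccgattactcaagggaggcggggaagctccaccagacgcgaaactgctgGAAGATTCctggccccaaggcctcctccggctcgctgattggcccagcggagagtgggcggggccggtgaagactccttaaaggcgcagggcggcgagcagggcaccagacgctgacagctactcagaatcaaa
These matches describe letters in a window and not binding by a factor.

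Of the 24 arrays, 4 stood apart, both hemispheres of MCAO mouse 3 and of sham mouse 1. Their median Pearson correlation with the other arrays was 0.33 to 0.551, against 0.981 to 0.989 for the remaining 20, and their positive control probe sets averaged 4.69 to 5.01 log2 units against 6.51 to 6.74. The fits therefore used 20 arrays of 10 mice, 7 MCAO and 3 sham, and counts and medians on all 24 arrays are given beside those of the classes. The 10 neuronal markers were above background on every one of the 20 arrays, as were 8 of 8 measured astrocyte and 8 of 8 measured oligodendrocyte markers. The mean neuronal marker level was 9.8 to 9.98 in MCAO IP arrays, 9.69 to 9.95 in MCAO CL, 9.78 to 9.92 in sham IP and 9.81 to 9.88 in sham CL, so the groups overlapped. In each group, 5 of 6 neutrophil and monocyte markers were above background on no array. In bulk tissue, fewer cells of a type and less RNA per cell cannot be told apart.

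All levels are log2 probe-set signals, so a difference of 1 unit is a doubling if the deposited values are log2, which was inferred from their range. Background was the signal below which 95% of an array's negative controls lay, 5.17 to 5.74 on these 20. By that measure 23 of 27 members were above background on all 20 arrays, against 33.1% of all probe sets tested. Hsf2 was above it on 19, Bag3, a co-chaperone of Hsp70 in selective autophagy, on 4, and the small heat shock genes Hspb1 and Hspb8 on 0. Signals of different genes are not set against each other, since probe sets differ in response.

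On the occluded side of MCAO mice no chaperone gene passed the test, while the J-domain genes Dnajb1 and Dnajb4 were higher there in 7 of 7 mice. In limma with mouse as a block and Benjamini-Hochberg adjustment over 22206 probe sets, 0 of 27 members were called, and 30 probe sets, 0.135%, were called in all. On all 24 arrays the member count was again 0, with 0.0856% of probe sets called. At an unadjusted p under 0.05, 3 members were higher (Dnajb1, Dnajb4, Hspb1), against 3.18% of probe sets, and 0 were lower, against 3.92%. Letting the prior variance follow signal and resist outlying probe sets called 2 members, Dnajb4 (adjusted p = 0.036) and Dnajb1 (adjusted p = 0.0443), at a background of 0.378%. A side difference above 0 in every MCAO mouse was seen for 2 of 27 members, against 1.22% of probe sets, and one below 0 in every mouse for 0 members, also against 1.22%.

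**Figure D1:**
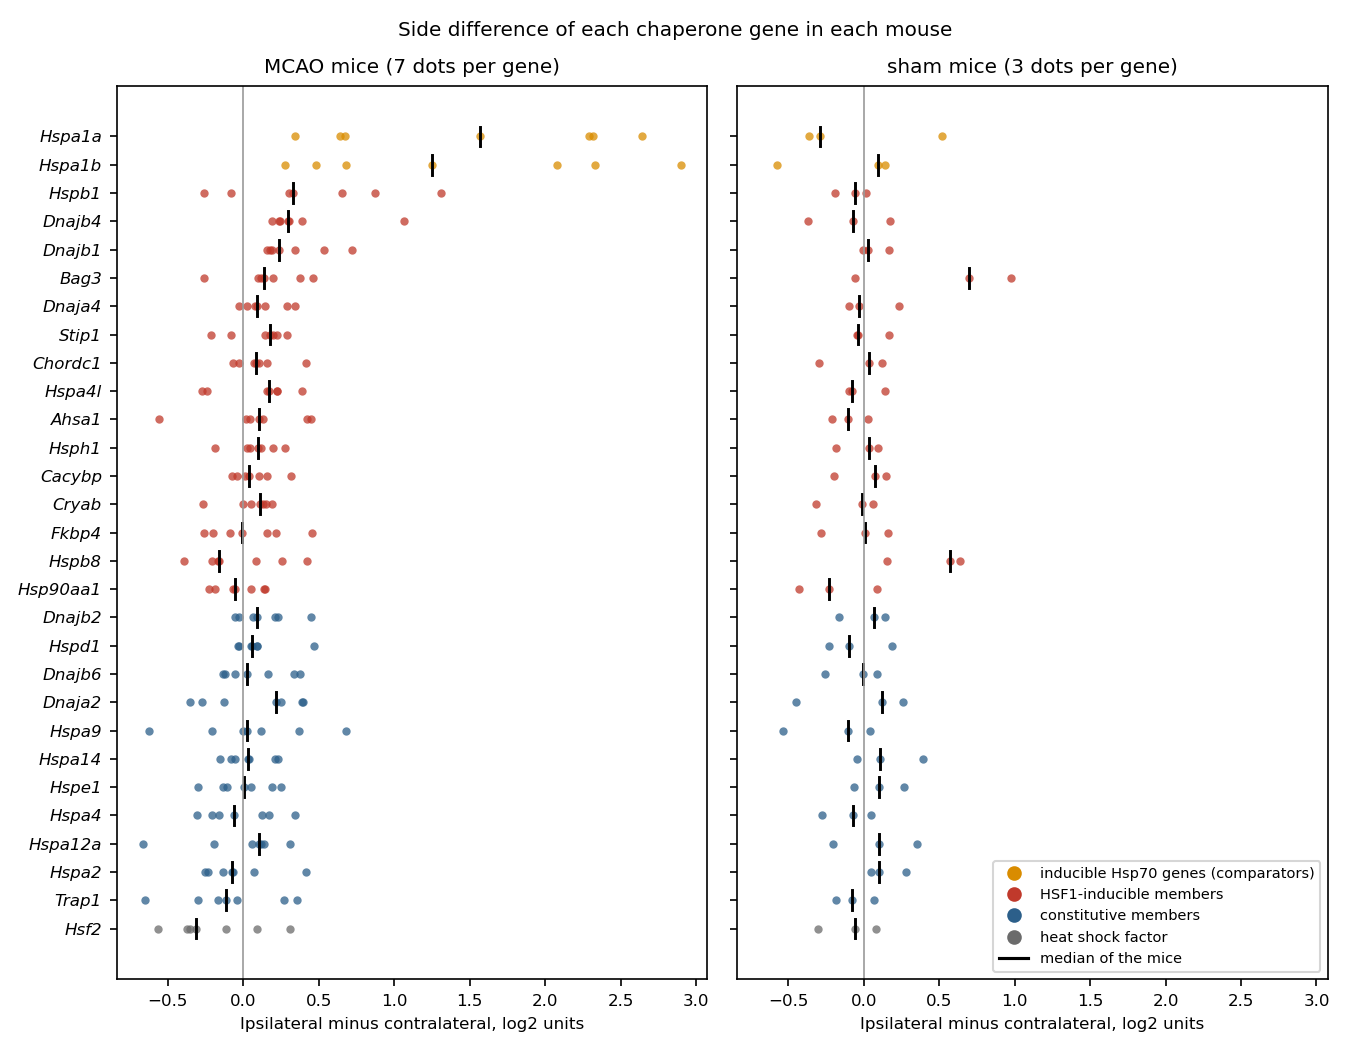
Ipsilateral minus contralateral signal in log2 units (x axis) of each gene in each mouse, in 7 MCAO mice (left) and 3 sham mice (right), with the median as a black bar. In MCAO mice Hspa1a and Hspa1b stand to the right of all members in the median, and Dnajb1 and Dnajb4 are the members with all 7 MCAO dots above 0.

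Taken by class, 13 of 15 inducible members had a side difference above 0, with a median of 0.09, against 6 of 11 constitutive members with a median of 0.03. Over all probe sets tested 48.4% were positive, with a median of -0.0048. Of the 7360 that were above background on all 20 arrays 51.9% were positive, with a median of 0.0045. Within single MCAO mice the inducible median ranged from -0.04 to 0.19 and the constitutive median from -0.05 to 0.16. The inducible median was the higher of the pair in 6 of 7 MCAO mice, by 0.07 ± 0.06 (SD, n = 7), the exception being mouse 8. In sham mice it was the higher in 1 of 3. These medians are a description of lists chosen with results known and carry no test. With Hspd1 and Hspe1 counted as inducible, 14 of 17 inducible members were positive with a median of 0.09. On all 24 arrays 13 of 15 inducible members were positive with a median of 0.23, an increase set by MCAO mouse 3, whose inducible median was 0.82, and 10 of 11 constitutive members with a median of 0.09. Over the 7360 probe sets above background on the 20 arrays, the median on all 24 was 0.0555, with 63.9% positive. With each array centred on its median signal, 9 of 11 constitutive members were positive. The sign of 6 estimates differed between 20 and 24 arrays, those of Hspa2, Hspa4, Hspe1, Hsp90aa1, Fkbp4 and Trap1. The constitutive median was 0.009 without MCAO mouse 4 and 0.0083 without mouse 6.

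**Figure D2:**
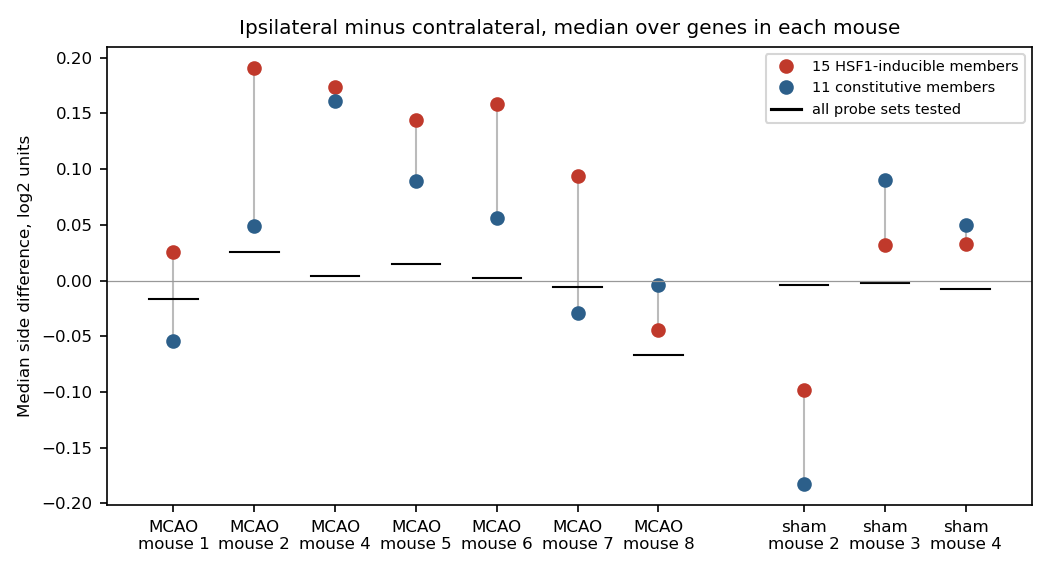
Median side difference in log2 units (y axis) over 15 inducible members (red) and 11 constitutive members (blue) in each of 10 mice, with the median over all probe sets as a black bar. Red lies above blue in 6 of 7 MCAO mice and in 1 of 3 sham mice.

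Among the J-domain proteins, which stimulate the ATPase of Hsp70 and hand it clients, 6 of 6 measured members had a positive side difference in MCAO mice, with a median of 0.14. Dnajb1 (Hsp40), the J-domain partner of inducible Hsp70 and itself an HSF1 target, had levels of 7.07, 7.68 and 7.78 (lowest, median and highest of 7) in MCAO IP arrays and 6.91, 7.14 and 7.59 in MCAO CL arrays. Its sham levels were 6.91, 7.28 and 7.53 in IP and 6.92, 7.25 and 7.36 in CL. The groups overlapped, and MCAO IP minus sham IP was 0.31 ± 0.17 (SE, adjusted p = 0.722). Its side difference was 0.23, 0.34, 0.17, 0.16, 0.19, 0.54 and 0.72 in MCAO mice 1, 2, 4, 5, 6, 7 and 8. Mice 7 and 8 were the highest. The limma estimate was 0.34 ± 0.09 (SE, n = 7 mice), a fold of 1.26 with a 95% interval of 1.11 to 1.44 (adjusted p = 0.343). In the arrays left out, Dnajb1 ran the other way, with side differences of -0.53 in MCAO mouse 3 and -1.37 in sham mouse 1.

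Dnajb4, a close relative of Dnajb1 that also works with Hsp70, gave the largest J-domain difference. Its levels were 7.52, 7.77 and 8.14 in MCAO IP arrays, 7.08, 7.5 and 7.71 in MCAO CL, 6.92, 7.32 and 7.35 in sham IP and 7.18, 7.29 and 7.39 in sham CL. Every MCAO IP array was above every sham IP array, while the CL groups overlapped. Side differences were 0.29, 0.19, 1.06, 0.39, 0.23, 0.24 and 0.3 in MCAO mice 1, 2, 4, 5, 6, 7 and 8, so mouse 4 was far above the rest. The estimate was 0.39 ± 0.11 (SE), a fold of 1.31 with an interval of 1.11 to 1.54 (adjusted p = 0.39), and 0.27 without mouse 4. In sham mice 2, 3 and 4 the differences were -0.37, 0.17 and -0.07, on both sides of 0.

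The other J-domain members had smaller estimates. Dnaja4, which is HSF1-inducible, had side differences from -0.03 to 0.34 with a median of 0.09 and was higher in 6 of 7 mice (estimate 0.13 ± 0.08 SE, adjusted p = 0.819). The constitutive Dnajb2, a J-domain protein with ubiquitin-interacting motifs that is enriched in neurons, had differences from -0.05 to 0.45 with a median of 0.09 (estimate 0.14 ± 0.08 SE, adjusted p = 0.82). For Dnajb6, which holds back aggregation of polyglutamine proteins and carries the 3-unit motif shown above, the range was -0.14 to 0.37 with a median of 0.02 (estimate 0.08 ± 0.09 SE, adjusted p = 0.926, and 0.04 without mouse 5 or mouse 8). Its levels were 9.12, 9.19 and 9.32 in MCAO IP and 8.82, 9.16 and 9.31 in MCAO CL, which overlapped. Dnaja2, a constitutive partner of Hsc70, was higher in 4 of 7 mice, with an estimate of 0.07.

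**Figure D3:**
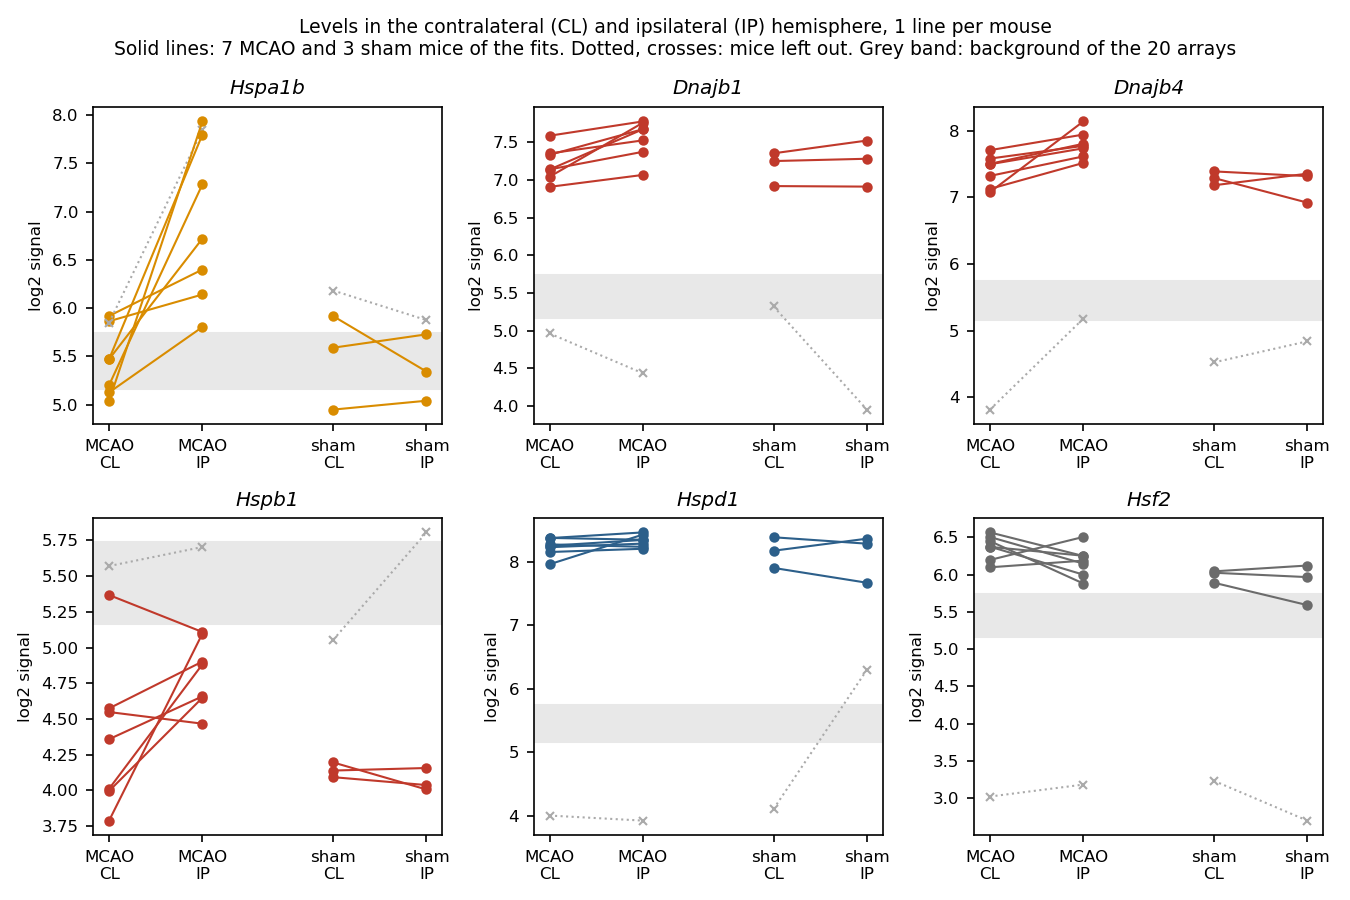
Log2 signal (y axis) of 6 genes in the CL and IP hemispheres of MCAO and sham mice, 1 line per mouse, with the mice left out of the fits dotted and the range of array background as a grey band. Hspb1 lies below or within the band on the 20 arrays, and Dnajb1, Dnajb4 and Hspd1 lie above it on those 20 arrays. Of the 20, Hspa1b lies above the band on all 7 MCAO IP arrays, the CL arrays of MCAO mice 1 and 2 and that of sham mouse 2.

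The small heat shock proteins form oligomers that hold misfolded chains. Hspb1 (Hsp25 in mice) was the member with the largest side difference, at signals that never passed background. Its levels were 4.47, 4.88 and 5.11 in MCAO IP, 3.79, 4.36 and 5.37 in MCAO CL, 4.01, 4.04 and 4.16 in sham IP and 4.09, 4.14 and 4.2 in sham CL. All 7 MCAO IP arrays lay above the 3 sham IP arrays. Side differences were -0.08, -0.26, 1.31, 0.65, 0.87, 0.33 and 0.3 in MCAO mice 1, 2, 4, 5, 6, 7 and 8, positive in 5 of 7 and highest in mouse 4. The estimate was 0.45 ± 0.16 (SE, adjusted p = 0.538), and no fold is given since both sides were below background. Cryab (alpha B-crystallin, abundant in oligodendrocytes) was well measured, at 8.21, 8.47 and 8.71 in MCAO IP and 8.13, 8.43 and 8.6 in MCAO CL. Its estimate was 0.05 ± 0.08 (SE, adjusted p = 0.954), with an interval of the fold from 0.916 to 1.17.

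Of the Hsp70 and Hsp110 genes, 4 of 7 were positive in MCAO mice, with a median of 0.03. Hsph1 (Hsp105), an inducible nucleotide exchange factor of Hsp70 whose promoter holds the 3-unit motif, had levels of 9.53, 9.7 and 9.77 in MCAO IP and 9.45, 9.6 and 9.72 in MCAO CL. The side difference was above 0 in 6 of 7 mice, with an estimate of 0.08 ± 0.08 (SE, adjusted p = 0.919). Its interval allows a fold of 0.939 to 1.19. Hspa4l, an inducible Hsp110 relative, gave 0.09 (adjusted p = 0.923) and Hspa4, its constitutive counterpart, -0.02 (adjusted p = 0.992). Estimates for Hspa2, Hspa12a and Hspa14, further members of the Hsp70 superfamily, lay between -0.04 and 0.03.

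Neither Hsp90 gene had a positive estimate. Hsp90aa1, the inducible cytosolic Hsp90, had levels of 9.58, 10.02 and 10.14 in MCAO IP and 9.65, 9.998 and 10.34 in MCAO CL. It was higher on the occluded side in 3 of 7 mice, with an estimate of -0.03 ± 0.09 (SE, adjusted p = 0.978) and an interval of the fold from 0.861 to 1.11. Its values depended on the arrays left out, where the side difference was 4.49 in MCAO mouse 3 and 2.9 in sham mouse 1, and the estimate on all 24 arrays was 0.53 (adjusted p = 0.94). Trap1, the mitochondrial Hsp90, had side differences from -0.66 to 0.36 with a median of -0.12 and was lower in 5 of 7 mice. Its estimate was -0.09 ± 0.11 (SE, adjusted p = 0.93), and 0.07 on all 24 arrays.

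The other mitochondrial chaperones lay on both sides of 0. Hspd1 (Hsp60), the folding chamber of the matrix, had levels of 8.2, 8.34 and 8.46 in MCAO IP, 7.96, 8.25 and 8.37 in MCAO CL, 7.67, 8.28 and 8.36 in sham IP and 7.9, 8.17 and 8.38 in sham CL. Its side difference was 0.05, 0.09, -0.04, 0.09, 0.06 and -0.03 in MCAO mice 1, 2, 4, 5, 6 and 7 and 0.47 in mouse 8, which alone stood out. The estimate was 0.1 ± 0.09 (SE, adjusted p = 0.903), and 0.04 without mouse 8. Hspe1 (Hsp10), its lid, which shares the promoter region and the motif, gave -0.01 ± 0.09 (SE, adjusted p = 0.994), and mouse 8 had a difference of 0.001. Hspa9 (mortalin), the Hsp70 of the matrix that pulls in imported chains, ranged most widely of the constitutive members, from -0.63 to 0.68, with an estimate of 0.05.

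All 6 co-chaperones had small positive estimates, from 0.04 to 0.16, with a median of 0.1. Stip1 (Hop), which bridges Hsp70 and Hsp90, gave 0.1 ± 0.08 (SE, adjusted p = 0.883). Chordc1, an Hsp90 partner with the 3-unit motif at its start, gave 0.1 ± 0.08 (SE, adjusted p = 0.888). Ahsa1, which activates the Hsp90 ATPase, gave 0.09 and was above 0 in 6 of 7 mice, with -0.56 in mouse 1. Cacybp and Fkbp4, the latter an immunophilin of steroid receptor complexes, gave 0.07 and 0.04, and Fkbp4 was -0.07 on all 24 arrays. Bag3 gave 0.16 from signals mostly below background.

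Hsf2, a partner of HSF1 that also acts in development, had a lower estimate on the occluded side. Its levels were 5.88, 6.19 and 6.51 in MCAO IP, 6.1, 6.38 and 6.57 in MCAO CL, 5.59, 5.97 and 6.12 in sham IP and 5.89, 6.03 and 6.04 in sham CL. The side difference was below 0 in 5 of 7 mice, and the estimate was -0.19 ± 0.11 (SE, adjusted p = 0.798). Both MCAO groups lay above sham in the median, and in CL all 7 MCAO arrays exceeded the 3 sham arrays.

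The inducible Hsp70 genes, used here only as a yardstick, had larger side estimates than any member. Hspa1b had levels of 5.81, 6.72 and 7.94 in MCAO IP, with all 7 arrays above background, and 5.04, 5.47 and 5.92 in MCAO CL, with 2 of 7 above it. The side difference was positive in 7 of 7 mice, from 0.28 to 2.9. The estimate was 1.43 ± 0.28 (SE, adjusted p = 0.0908, and 0.0165 on all 24 arrays). Hspa1a gave 1.49 ± 0.26 (SE, adjusted p = 0.0542, and 0.591 on all 24 arrays), also positive in 7 of 7 mice, with 7 of 7 IP and 3 of 7 CL arrays above background. No fold is given for either, since most CL arrays were below background. Both genes are near-identical in sequence, so their probe sets may share signal. Of the 23 members above background on all 20 arrays, the upper bound of the interval was below a 1.5-fold rise for 22, the exception being Dnajb4, and below a 2-fold rise for all 23.

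**Figure D4:**
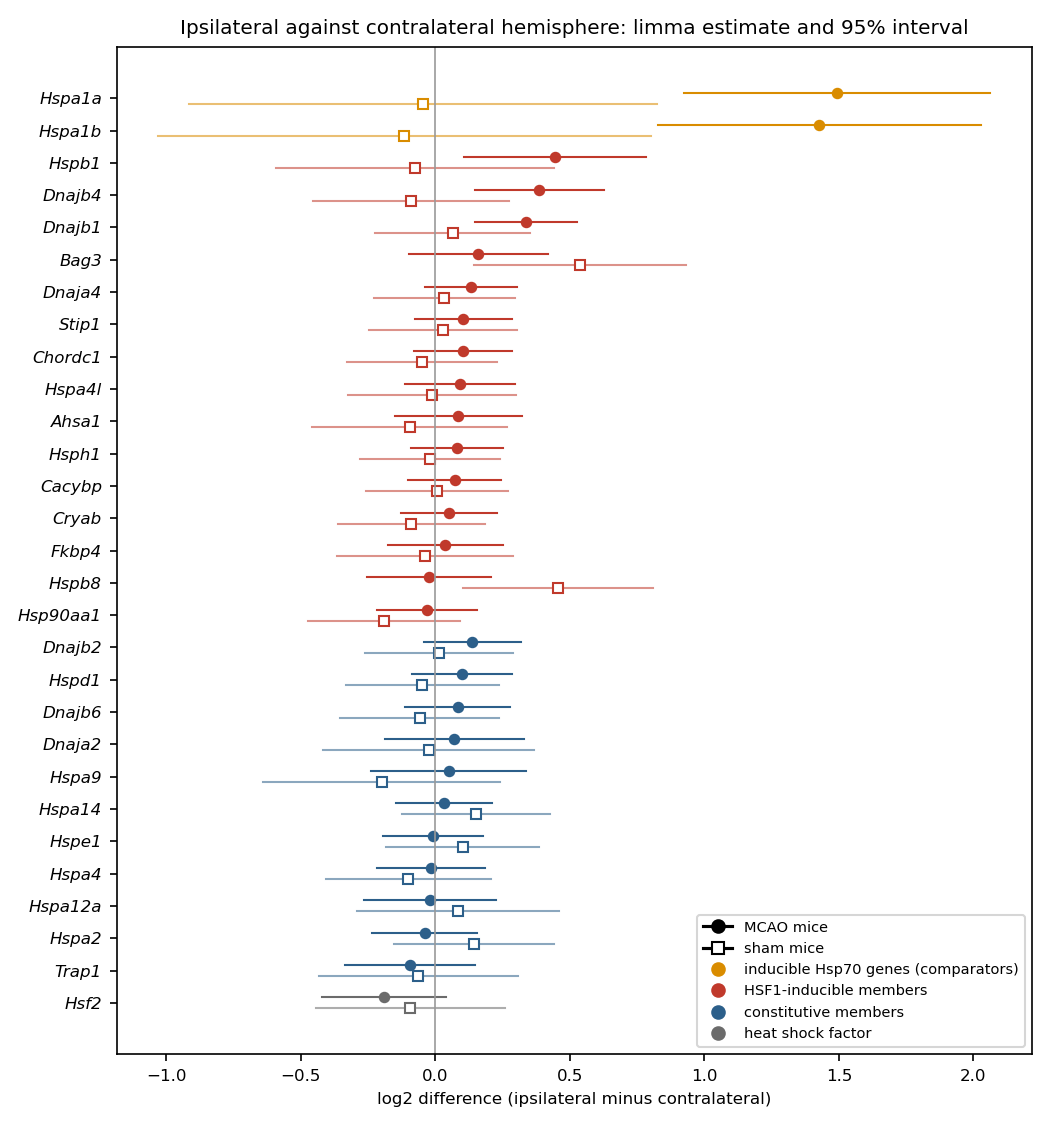
Side difference in log2 units (x axis) with its 95% interval from limma, for MCAO mice (filled circles, n = 7) and sham mice (open squares, n = 3). The MCAO intervals of Hspa1a, Hspa1b, Hspb1, Dnajb4 and Dnajb1 lie above 0, and the sham intervals of Bag3 and Hspb8 lie above 0.

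Side differences of Hspa1b were set against those of each member over the 7 MCAO mice, to see whether mice with more Hspa1b had more of the other chaperones. In 27 exact two-sided permutation tests no member passed after Benjamini-Hochberg adjustment, with a smallest adjusted p of 0.842 for Pearson's r. Dnajb1 had r = 0.62 (p = 0.145) and rho = 0.29 (p = 0.556), and r = 0.67 without the 2 mice farthest from the Hspa1b median. Hspa4l had r = -0.73 (p = 0.0796) and rho = -0.46 (p = 0.302), and r = -0.79 without them. The comparator Hspa1a had r = 0.96 (p = 0.0044), rho = 0.86 (p = 0.0238) and r = 0.94 without them. With MCAO mouse 3 included, r over 8 mice was 0.16 for Dnajb1, -0.03 for Hspa4l and 0.5 for Hspa1a. Mouse 8, with the highest Hspa1b and Dnajb1 differences, had an inducible median of -0.04, the lowest of the 7. Its median over all probe sets was -0.07, also the lowest of the 7.

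Sham surgery gave no called probe set between the hemispheres (0%), in limma at an adjusted p under 0.05. Of the members, 6 of 15 inducible and 5 of 11 constitutive were positive, with medians of -0.02 each. On all 24 arrays 12 of 15 inducible members were positive with a median of 0.17, and 7 of 11 constitutive members with a median of 0.04. At an unadjusted p under 0.05, Bag3 (0.54 ± 0.18 SE, adjusted p = 0.789) and Hspb8 (0.45 ± 0.16 SE, adjusted p = 0.796) were higher on the operated side, 2 of 27 against 2.8% of probe sets, and 0 members were lower, against 2.7%. Hspb8 and Bag3 form a complex with Hsp70 in autophagy of misfolded protein. Hspb8 had levels of 4.12, 4.24 and 4.47 in the 3 sham IP arrays and 3.67, 3.84 and 3.97 in the 3 sham CL arrays. All of these were below background, as were those of Bag3 in sham arrays.

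Whether the side difference itself differed between MCAO and sham mice was tested as an interaction. It called 0 of 27 members and 0% of probe sets. At an unadjusted p under 0.05 Dnajb4 was higher (0.48 ± 0.2 SE, adjusted p = 0.795), against 2.8% of probe sets, and Hspb8 lower (-0.48 ± 0.2 SE, adjusted p = 0.783), against 3.11%. For Dnajb1 the interaction was 0.27 ± 0.16 (SE, adjusted p = 0.87). The estimate was positive for 13 of 15 inducible and 6 of 11 constitutive members, with medians of 0.1 and 0.08, and for 6 of 6 J-domain genes. It was also positive for 8 of 8 TRiC chaperonin genes, 6 of 6 prefoldin genes and 8 of 8 oligodendrocyte markers. Of further Hsp70 cofactors and J-domain genes 11 of 18 were positive, and of other small heat shock genes 1 of 6. Over all probe sets 50% were positive, with a median of 0.0003, and 56% of those above background on all 20 arrays, with a median of 0.02. On all 24 arrays the estimate was positive for 7 of 15 inducible and 5 of 11 constitutive members, and again for 6 of 6 J-domain genes. There 46% of the probe sets above background on the 20 arrays were positive. The TRiC, prefoldin and oligodendrocyte lists had 5 of 8, 2 of 6 and 6 of 8 positive. Only 3 sham mice enter this test, and of the 23 members above background on all 20 arrays, intervals for 4 reach a 1.5-fold rise.

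Between animals, the ipsilateral hemisphere of MCAO mice had no member called against sham, beside 33 probe sets called (0.149%). Estimates were positive for 25 of 27 members, with a median of 0.14. Over all probe sets 51.9% were positive, with a median of 0.0082. Of those above background on all 20 arrays 60.3% were positive, with a median of 0.03. The inducible and constitutive medians were 0.15 and 0.11. At an unadjusted p under 0.05, Hspb1 (0.76 ± 0.15 SE, adjusted p = 0.0856) and Dnajb4 (0.59 ± 0.15 SE, adjusted p = 0.29, a fold of 1.51) were higher, 2 of 27 against 3.85% of probe sets. MCAO and sham arrays did not overlap for Hspb1, Dnajb4 and Cacybp, 3 of 27, against 1.4% of probe sets. Cacybp differed by 0.15 ± 0.11 (SE, adjusted p = 0.799). Beside these, the mean level of 8 endothelial markers was 6.46 to 6.59 in MCAO IP arrays and 6.15 to 6.49 in sham IP arrays. Of the 8, 7 had positive estimates (median 0.11), and 2 were higher at an unadjusted p under 0.05. Positive too were 8 of 8 astrocyte, 8 of 10 neuronal, 6 of 8 microglial and 6 of 8 oligodendrocyte markers (medians 0.1, 0.04, 0.1 and 0.12). Fewer were positive among pericyte and smooth muscle markers, 3 of 7, and choroid plexus markers, 1 of 6. The part of these lists in the chaperone values was not tested. On all 24 arrays Hspb1 differed by 0.43 and Dnajb4 by 0.85 (adjusted p = 0.968 for both), and the median over members was 0.45, beside 0.29 over the probe sets above background on the 20 arrays.

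**Figure D5:**
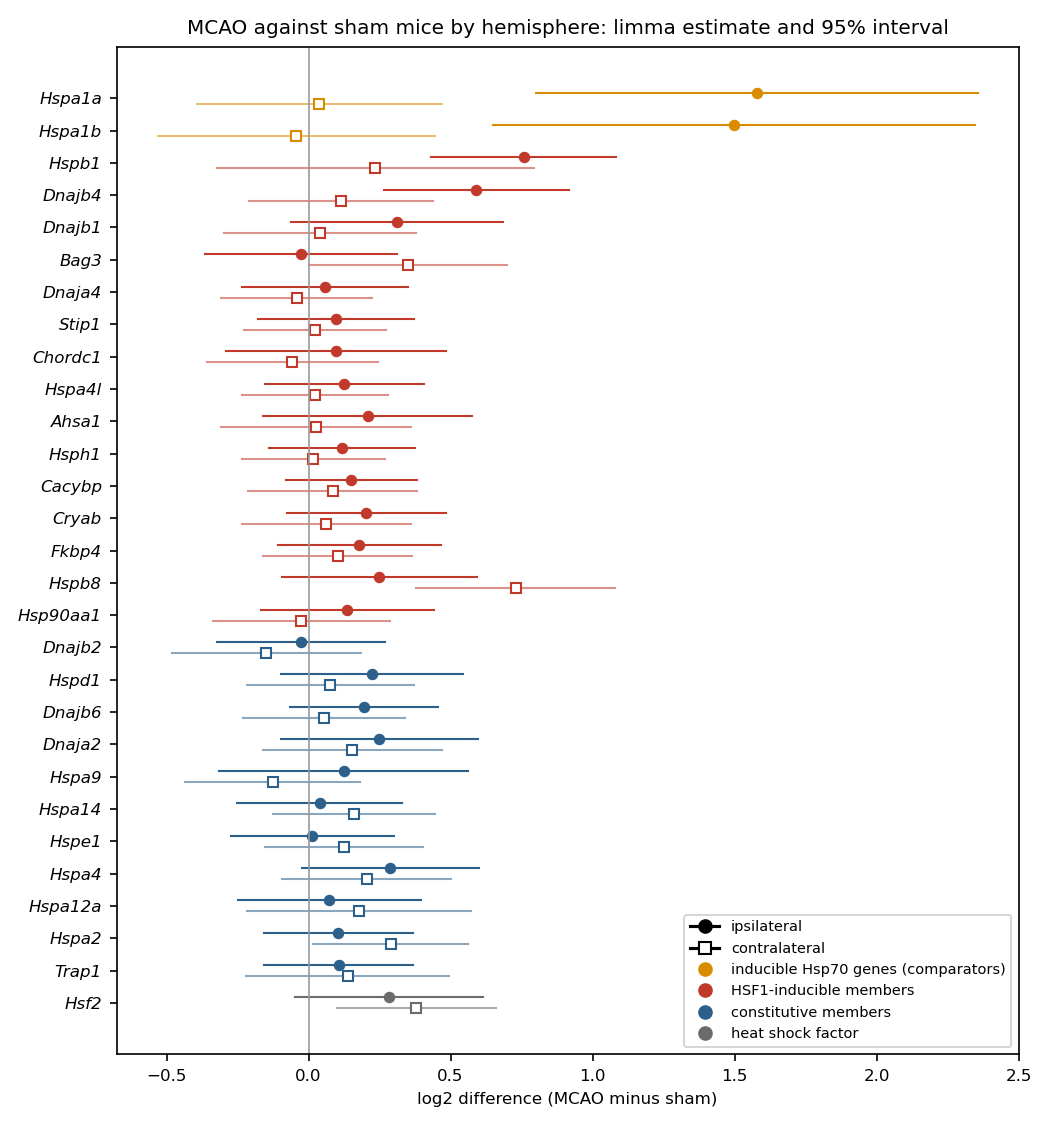
MCAO minus sham in log2 units (x axis) with its 95% interval from limma, for ipsilateral (filled circles) and contralateral hemispheres (open squares), 7 MCAO and 3 sham mice. Ipsilateral intervals above 0 are those of Hspa1a, Hspa1b, Hspb1 and Dnajb4, and contralateral ones those of Hspb8, Hsf2, Hspa2 and Bag3.

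In the contralateral hemisphere, away from the occlusion, no probe set was called between MCAO and sham mice by limma (0%). Estimates were positive for 22 of 27 members, with a median of 0.08. Over all probe sets 52.5% were positive, with a median of 0.01, and 54.8% of those above background on all 20 arrays. The inducible median was 0.04 and the constitutive median 0.14. At an unadjusted p under 0.05, 4 of 27 members were higher, against 2.52% of probe sets: Hspb8 (0.73 ± 0.16 SE, adjusted p = 0.988), Hsf2 (0.38 ± 0.13 SE), Hspa2 (0.29 ± 0.13 SE) and Bag3 (0.35 ± 0.16 SE), the last 3 with an adjusted p of 0.9999. Groups did not overlap for Hspb8, Hsf2 and Hspa2, 3 of 27 against 0.779% of probe sets. Hspb8 had levels of 4.25, 4.52 and 4.94 in the 7 MCAO CL arrays, all below background. Hspa2, a constitutive Hsp70 known for its role in spermatogenesis, had levels of 6.6, 6.81 and 7.02 in MCAO CL and 6.44, 6.52 and 6.6 in sham CL. In the ipsilateral comparison Hsf2 and Hspb8 were also positive, at 0.28 and 0.25. Beside these, 8 of 8 microglial markers had positive contralateral estimates, against 52.5% of probe sets. Their mean levels were 5.64 to 6.2 in MCAO CL and 5.69 to 5.76 in sham CL arrays. Of these 8, 4 were above background on no sham CL array and 2 on no MCAO CL array. The mean of 8 endothelial markers was 6.36 to 6.69 and 6.24 to 6.37, and 2 of the 8 were higher at an unadjusted p under 0.05. Of the astrocyte markers 6 of 8 were positive (median 0.13), of the neuronal 5 of 10 and of the oligodendrocyte 2 of 8. The part of these lists was not tested. On all 24 arrays 26 of 27 members were positive with a median of 0.37. Of the probe sets above background on the 20 arrays, 88.5% were positive there, with a median of 0.32. The ipsilateral and contralateral comparisons use the same animals, so they are not independent of each other.

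Of 69 further chaperone genes measured, none was called on the occluded side of MCAO mice by limma, against 0.135% of probe sets. They cover the TRiC chaperonin, prefoldin, more J-domain and Hsp90 cofactors, mitochondrial proteases and chaperones, and other small heat shock proteins. At an unadjusted p under 0.05 there was 1 higher, against 3.18% of probe sets, and 1 lower, against 3.92%. The estimate was positive for 45 of 69, with a median of 0.03, against 48.4% of probe sets, with a median of -0.0048. Fkbp5, an immunophilin of Hsp90 and a glucocorticoid target, was lower in 7 of 7 mice (-0.33 ± 0.11 SE, adjusted p = 0.504), as were 1.22% of probe sets. Hspb3 was higher in 4 of 7 (0.41 ± 0.17 SE, adjusted p = 0.639). Prefoldin, which passes new actin and tubulin to TRiC, had 6 of 6 subunits positive, with a median of 0.1, and TRiC 7 of 8, with a median of 0.04. The other lists had 5 of 6 positive among heat shock factors and regulators (median 0.08), 11 of 14 among Hsp90 cofactors (0.02), 9 of 18 among Hsp70 cofactors and J-domain proteins (-0.0027), 5 of 11 among mitochondrial proteins (-0.0072) and 2 of 6 among small heat shock proteins (-0.008).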

How the data were processed

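Hemisphere RNA was extracted with mirVana Paris reagents and labelled by the GeneChip WT Plus method, per the labels' protocols. The values are log2 signals that the authors deposited, 1 per probe set. The submitters' processing notes name Affymetrix Expression Console as the tool. Normalization and build are not given in these sources. Of 29129 rows, 6923 array controls were left out, and 22206 probe sets were tested with no filter on signal.

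The comparisons within mice used limma 3.58.1 in R 4.3.3 (lmFit and eBayes) with mouse as a fixed block, since the titles give both hemispheres of a mouse the same number. Comparisons of MCAO with sham mice used 1 hemisphere each with no block. Mice with an array whose median correlation was under 0.9 were left out. P-values were adjusted over all probe sets, with 0.05 as the threshold, and errors of estimates are SE. The fits were also run on simulated data with independent noise and no mouse effect, which cannot check the block on mouse.

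The members, their classes, the other lists, the background measure and the rule for leaving out mice were chosen with earlier results of these data known. Side differences of each mouse, or their lowest, median and highest, are given for any member called. The same holds for the 4 inducible and 4 constitutive members with the smallest p on the occluded side of MCAO mice. Group levels are given for only some of these members, and for Hsf2. Which values to give for the other members was chosen after their values were seen. From the other chaperones, the 2 with the smallest p are named. Arrays have no depth, and their number limits the precision. Promoter sequences are from RefSeq (GRCm38.p6), matched by symbol. Figures used matplotlib 3.10.9.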

Additional observations from a re-analysis of the deposited data

Results flagged for a closer look

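In groups of 7 MCAO mice, 6 of 81 sets of values held a mouse whose gap to the nearest other mouse was large for the range of the group. Chance flags about 1 in 20 groups. The Dnajb4 side difference was 1.06 in mouse 4, against 0.19 to 0.39 in the others. Hspd1 had a side difference of 0.47 in mouse 8, against -0.04 to 0.09. Mouse 1 was low in the side difference of Ahsa1, at -0.56 against 0.02 to 0.45, and of Cryab, at -0.26 against at most 0.19. In the same mouse the contralateral level of Hspe1 was 8.23, against 7.86 to 7.998. The ipsilateral level of Fkbp4 was 8.16 in mouse 2, against 7.68 to 7.82. No member moved one way in every MCAO mouse and the other way in every sham mouse.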

How the results depend on the processing

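The number of members called stayed at 0 in the 5 comparisons under every alternative run but one: with the trend and robust settings of eBayes, 2 members were called on the occluded side of MCAO mice, Dnajb4 (adjusted p = 0.036) and Dnajb1 (adjusted p = 0.0443). The smallest adjusted p of a member there ranged from 0.33 to 0.629 when 1 mouse was left out, and was 0.0835 without dim probe sets. Without the replicate block, which pairs the hemispheres of a mouse, 0 members were called, and Dnajb1 kept 0.34 with an adjusted p of 0.845. The median side difference of inducible members was 0.23 on all 24 arrays against 0.09, where MCAO mouse 3 decided the increase. Of the members named by the rule with the smallest p, the Trap1 estimate turned from -0.0945 to 0.0653 on all 24 arrays. These add MCAO mouse 3, whose Trap1 side difference was 1.18. Why that mouse differed was not tested. Hspb1 and Hspb8 lay below background on all 20 arrays, so their differences rest on dim signals, and 3 sham mice limit the interaction and the comparisons with sham.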
